A study of Homo sapiens with 8 samples.

Results

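The genes of the microRNA machinery described here are the Argonautes, the GW182 proteins and Dicer, taken as targets of Argonaute2 themselves. They were chosen by name: every Ago2 peak of the deposited table whose gene symbol starts with EIF2C (the older symbol of the Argonautes) or TNRC6 (the GW182 proteins), or equals DICER1. That gave 183 peaks in 7 genes, out of 22506 peaks in 6326 genes. The genes are EIF2C1, EIF2C2 and EIF2C4 (now called AGO1, AGO2 and AGO4), TNRC6A, TNRC6B, TNRC6C and DICER1. EIF2C3 had no listed peak.

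The peaks come from crosslinking and immunoprecipitation of Ago2 (CLIP) in 293S cells, which descend from the human embryonic kidney line HEK293. Cells had been exposed for 60 minutes to emetine at 20 µg/mL, or were left untreated (control). Emetine is a plant alkaloid that stops ribosomes from elongating. Each treatment was 1 culture, divided into 3 aliquots for CLIP with Ago2 antibodies from Abnova, Santa Cruz and Sigma, and 1 aliquot for RNA-seq. All p-values below therefore measure the spread between aliquots and antibodies, not between cultures. The deposited values allowed the reads of each library to be recovered. Libraries of a treatment are numbered 1 to 3 by the falling normalised value of 1 read, without an antibody assigned.

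Argonaute proteins carry a microRNA and pair it with target transcripts, mostly through the seed at the 5′ end of the microRNA. GW182 proteins bind Argonaute and recruit deadenylases to the target, and Dicer cuts microRNA precursors to their mature length. The mRNAs of this machinery are themselves known targets: DICER1 is a textbook target of let-7, through sites in its coding sequence, and of miR-103 and miR-107, through its 3′ UTR.

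The mature sequences of these microRNAs, from RefSeq (GRCh38.p14), are shown because their seeds define the matches counted next. Capitals mark the seed, bases 2 to 8.
let-7a-5p: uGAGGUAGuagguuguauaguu
miR-103a-3p: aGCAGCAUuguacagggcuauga
miR-107: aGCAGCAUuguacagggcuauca
The miR-103a-3p and miR-107 seeds are the same, so both call for the 7-base match ATGCTGC, and let-7 calls for CTACCTC. Matches were sought on the mRNA strand of the coding sequence and 3′ UTR that GENCODE release 29 gives for 1 RefSeq transcript per gene, the one under which the gene's 3′ UTR peaks are listed. For DICER1, TNRC6B and TNRC6C most coding peaks are listed under another transcript, whose coding sequence was not searched. The DICER1 3′ UTR, 4270 nt long, held 5 matches to the miR-107 seed and 0 to that of let-7. Among 2209 3′ UTRs of 0.75 to 1.33 times its length, 27.5% held at least 1 miR-107 match, and 0.136% held at least as many as DICER1. These are the 5 sites with their flanks, 30 bases each, the match in capitals.
DICER1 3′ UTR, bases 1034 to 1040: cacacctaaaatATGCTGCagattttataa
DICER1 3′ UTR, bases 1635 to 1641: atgcttcgtggaATGCTGCatttatatgta
DICER1 3′ UTR, bases 2839 to 2845: gcagtcctaactATGCTGCgttttataata
DICER1 3′ UTR, bases 4110 to 4116: atttaccatcacATGCTGCagctgtttttt
DICER1 3′ UTR, bases 4162 to 4168: catacagtaatcATGCTGCagaaatttgca
The DICER1 coding sequence of 5766 nt held 4 let-7 matches. Of 812 coding sequences of like length, 35.6% held at least 1 such match and 0.493% held at least as many. The coding sites read as follows, with positions counted from the start codon.
DICER1 coding, bases 2635 to 2641: gcatactgtgttCTACCTCttaatgttgtt
DICER1 coding, bases 3641 to 3647: ccgtgcaaccaaCTACCTCatattccattc
DICER1 coding, bases 3749 to 3755: atgctaacaaatCTACCTCagatggaagtc
DICER1 coding, bases 5139 to 5145: tgcgattttggaCTACCTCataaccaagca

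The other machinery mRNAs held fewer of these matches. The EIF2C1 3′ UTR (10921 nt) held 1 let-7 match and 3 miR-107 matches, a number reached by 4.83% of 290 like-length 3′ UTRs. TNRC6B (12567 nt) held 3 and EIF2C4 (4285 nt) 2 miR-107 matches, numbers reached by 6.1% and 4.73% of like-length 3′ UTRs. The 3′ UTRs of TNRC6A, TNRC6C and EIF2C2 (623 nt) held 0. Of 3′ UTRs of like length to these, only 18.0%, 26.9% and 5.4% held at least 1. The TNRC6C coding sequence held 2 let-7 matches, a number reached by 7.74% of 1072 like-length coding sequences. The seeds of miR-15/16 (TGCTGCT) and miR-17 (GCACTTT) were searched in the same sequences. For miR-15/16 the 3′ UTR of TNRC6B held 5 matches, a number reached by 2.79% of 179 like-length 3′ UTRs, EIF2C4 held 3 (4.82%), EIF2C1 3 (20%), DICER1 2 (16.2%) and TNRC6C 1 (44.1%), and those of TNRC6A and EIF2C2 held 0. These letters overlap ATGCTGC, and 3 of the 5 in TNRC6B are the same places as its miR-107 matches. For miR-17 the 3′ UTRs held 0 to 3 matches, each number reached by at least 17.3% of like-length 3′ UTRs where it was above 0. In coding sequences the 7 genes held 0 to 3 miR-15/16 and 0 to 2 miR-17 matches, and the 2 miR-17 matches of EIF2C2 were reached by 0.976% of 3895 like-length coding sequences. The peaks are on hg19 and the sequences on another build, so no peak was placed on a match.

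In listed peaks the emetine libraries 1 to 3 held 40770, 104617 and 96902 reads, and the control libraries 39660, 117610 and 103482. The 7 genes accounted for 158, 1069 and 728 of the emetine reads and for 139, 1110 and 665 of the control reads. Their share came to 0.388%, 1.02% and 0.751% with emetine, against 0.350%, 0.944% and 0.643% without. In emetine library 1, the Wilson 95% interval of that share was 0.332% to 0.453%. The spread of this share between libraries of 1 treatment was larger than the gap between treatments. Markers of other cell types (PTPRC, ALB, HBB and others) had peaks in 0 of 10 genes, and 3 of 8 markers named for 293S cells had peaks, NEFL with 21 of them.

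Every one of the 7 genes was crosslinked to Ago2 in cells with and without emetine, and all 7 carried more peaks than the median gene with peaks, which had 2. By number of peaks DICER1 ranked 15th of 6318 genes with 45, TNRC6A 19th with 40, TNRC6B 30th with 32, TNRC6C 38th with 30 and EIF2C1 99th with 19. EIF2C2 had 12 peaks and EIF2C4 had 5. Counting 3′ UTR peaks alone, per kilobase of 3′ UTR, the order was another one. EIF2C2 had 9.63 and TNRC6A 9.09 peaks per kb of 3′ UTR, DICER1 4.92, TNRC6C 4.26, TNRC6B 2.15, EIF2C1 1.56 and EIF2C4 0.933. The median of 4164 transcripts was 1.28 peaks per kb, so only EIF2C4 lay under it. The value of EIF2C2 rests on a 3′ UTR annotated as 623 nt. The 3′ UTR peaks of EIF2C1 span 4423 nt of an annotated 10921 nt, and those of EIF2C4 2459 nt of 4285 nt. Relative to RNA, meaning normalised CLIP reads over normalised RNA reads of both treatments, TNRC6C stood at the 96.0th percentile of 5807 genes with at least 50 RNA reads, TNRC6A at the 95.2nd and EIF2C2 at the 92.4th. EIF2C1 was at the 87.5th, TNRC6B at the 85.6th, DICER1 at the 81.6th and EIF2C4 at the 55.1st percentile.

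With reads summed over the peaks of a gene, the difference between treatments passed the test in none of the machinery genes. A read under overlapping peaks can count more than once in sums per gene or region. The same holds for the ratios, intervals and shares built on them. In limma 0 of the 7 genes had an adjusted p under 0.05, as for 0% of all 6318 genes, and 0 had an unadjusted p under 0.05, against 1.84% of all genes. The smallest unadjusted p among the 7 was 0.152, for EIF2C2, and limma-voom on the recovered reads also called 0 of the 7. In all 7 the emetine and control libraries overlapped, where 2.99% of all genes lay fully higher and 2.18% fully lower with emetine. The 95% intervals given for ratios of reads hold counting error alone, since reads were summed over the libraries of a treatment. Any PCR copies of a fragment counted as separate reads would make these intervals too narrow.

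**Figure D1:**
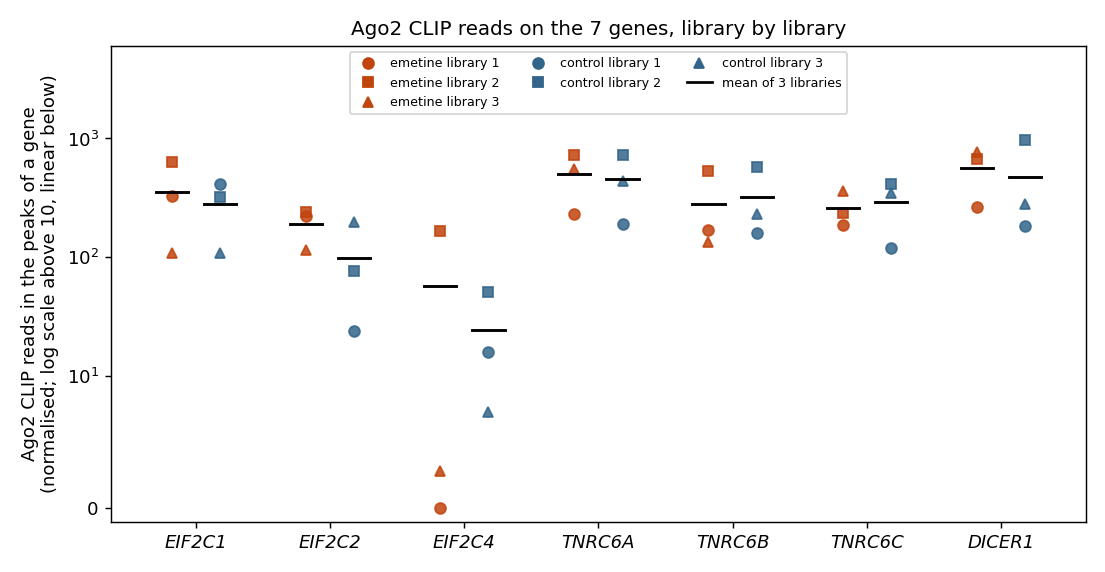
Normalised Ago2 CLIP reads summed over the peaks of each gene, on an axis that is logarithmic above 10 and linear below. Each point is 1 library, emetine left and control right of each gene name, and the bars are means of 3 libraries; the groups overlap in all 7 genes, and EIF2C4 is at 0 in emetine library 1.

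Among the Argonautes, EIF2C1 encodes AGO1, one of the microRNA-binding Argonautes. EIF2C1 held 37, 211 and 39 reads in emetine libraries 1 to 3, against 52, 114 and 45 reads in control libraries 1 to 3. Emetine library 2 was the high one, and after normalisation the other emetine libraries lay within the control range, at 328 and 109.5 against 109.2 to 416 normalised reads. Scaled by depth, the read totals gave a ratio of 1.51 (95% interval 1.26 to 1.81), while the log2 change, the difference of mean logarithms, was 0.21 (SE 0.67, limma adjusted p = 0.970). Without emetine library 2 that change was -0.37, and likewise -0.37 without control library 3.

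EIF2C2 encodes AGO2, the protein that was immunoprecipitated and the Argonaute with slicer activity. It held 25, 80 and 41 reads with emetine, against 3, 27 and 81 in the control. After normalisation the emetine libraries averaged 192 ± 67.5 and the control libraries 98.9 ± 88.5 reads (SD, n = 3 each), with control library 3 inside the emetine range. The log2 change was 1.34 (SE 0.94, limma adjusted p = 0.800) and the ratio of read totals 1.46 (95% interval 1.13 to 1.89). The change was 0.58 without control library 1 and 2.07 without control library 3.

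EIF2C4, which encodes AGO4, was the least covered of the 7, with 0, 56 and 1 reads in emetine libraries and 2, 18 and 3 in control libraries. Its values turn on library 2 of each treatment. The ratio of read totals was 2.75 (95% interval 1.67 to 4.68), but the mean of logarithms went the other way, at -1.17 (SE 2.02, limma adjusted p = 0.908), because 1 emetine library had no read. Without emetine library 1 the log2 change was 0.39.

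The 3 GW182 genes encode paralogous scaffolds that bridge Argonaute to deadenylase complexes, and their ratios of read totals lay between 0.830 and 1.12. TNRC6A held 26, 242 and 198 reads with emetine, against 24, 257 and 182 in the control, so the groups covered nearly the same range. Its ratio was 1.12 (95% interval 0.981 to 1.27), with a log2 change of 0.20 (SE 0.54, limma adjusted p = 0.961) that was -0.14 without emetine library 2 and -0.32 without control library 1. TNRC6B held 19, 178 and 48 reads with emetine, against 20, 204 and 96 in the control, a ratio of 0.851 (95% interval 0.717 to 1.01). Its log2 change was -0.27 (SE 0.68, limma adjusted p = 0.952), and 0.25 without control library 2 or 0.11 without emetine library 3. Library 2 was the highest of each treatment, and the ranges overlapped. TNRC6C held 21, 78 and 128 reads with emetine, against 15, 146 and 143 in the control, a ratio of 0.830 (95% interval 0.696 to 0.989) with a log2 change of -0.045 (SE 0.68, limma adjusted p = 1.00). Leaving out single libraries moved the TNRC6C change to values of up to 0.29, without control library 2.

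DICER1, which encodes the enzyme that cuts precursors to mature microRNAs, held 30, 224 and 273 reads in emetine libraries and 23, 344 and 115 in control libraries. Control library 2 held the most reads of all 6, and the normalised means were 568 ± 266 with emetine and 478 ± 429.6 in the control (SD, n = 3 each). The ratio of read totals was 1.21 (95% interval 1.07 to 1.38) and the log2 change 0.48 (SE 0.53, limma adjusted p = 0.800), or -0.014 without control library 1.

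Single peaks were sparse. The 183 peaks held a median of 17 reads over the 6 libraries, between 11 and 116, and were 2 to 116 nt wide with a median of 31 nt. All reads of a peak came from 1 library for 36 of them (19.7%, against 26.5% of all peaks), and only 4 (2.19%, against 4.78%) had reads in all 6. No read with emetine was found in 27 peaks, and none in the control in 27 others (14.8% each, against 20.2% and 17.7% of all peaks). Peaks are not independent, since 38 overlapped or touched another of their gene, and 10 shared all 6 read numbers with another. Ratios, intervals and shares of reads were not recomputed with such peaks counted once. The log2 change was above 0 for 101 peaks and below 0 for 82, or 55.2% higher against 50.2% of all 22497 peaks with recovered reads, with a median of 0.19 against 0.014.

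None of the 183 passed: 0 had an adjusted p under 0.05 in limma, as for 0% of all peaks, the lowest was 0.784, and limma-voom likewise called 0. Without adjustment, 3 machinery peaks had a p under 0.05, 1 higher and 2 lower, where 1.06% of all peaks did, 0.765% higher and 0.298% lower. The emetine and control libraries did not overlap in 5 of the 183 peaks, 3 of them higher and 2 lower. Of all peaks 2.54% lay fully higher and 1.43% fully lower, both larger shares than among the 183.

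The 5 peaks whose libraries did not overlap lie in 4 of the genes. In the 3′ UTR of TNRC6A, chr16:24835974-24836009 (hg19, plus strand) held 3, 12 and 10 reads with emetine against 0, 0 and 1 in the control. That is a ratio of 27.8 with a very wide 95% interval of 4.55 to 1141, and a log2 change of 4.36 (SE 1.97, limma unadjusted p = 0.0268, adjusted p = 0.784). A coding peak of TNRC6A at chr16:24801738-24801777, singled out after its values were seen, held 2, 8 and 16 reads with emetine against 0, 3 and 1. The ratio was 7.22 (95% interval 2.51 to 28.5) and the log2 change 3.12 (SE 1.89, limma unadjusted p = 0.0979, adjusted p = 0.784). The best covered peak of EIF2C2 lies in its coding sequence at chr8:141582972-141583025 (minus strand). It held 11, 27 and 14 reads with emetine and 3, 11 and 10 in the control, so it had reads in every library. The ratio was 2.41 (95% interval 1.46 to 4.08) and the log2 change 1.34 (SE 1.47, limma adjusted p = 0.784).

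Both peaks that lay lower in every emetine library are 3′ UTR peaks with no emetine read at all. In DICER1, chr14:95554126-95554185 (minus strand) held 0 reads in each emetine library against 3, 15 and 3 in the control, which makes it at least 6.30-fold lower when the emetine total is set at 3 reads, the most that a count of 0 allows. In EIF2C1, chr1:36387752-36387801 (plus strand) held 0 reads in each emetine library against 3, 16 and 3 in the control, at least 6.60-fold lower. Both had an adjusted p of 0.784 in limma, with log2 changes of -4.38 (SE 2.07) and -4.41 (SE 2.06). The other values below given as "at least" were made with this floor. They are not confidence limits, and leave out the counting error of the treatment that had reads, so smaller changes are possible.

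**Figure D2:**
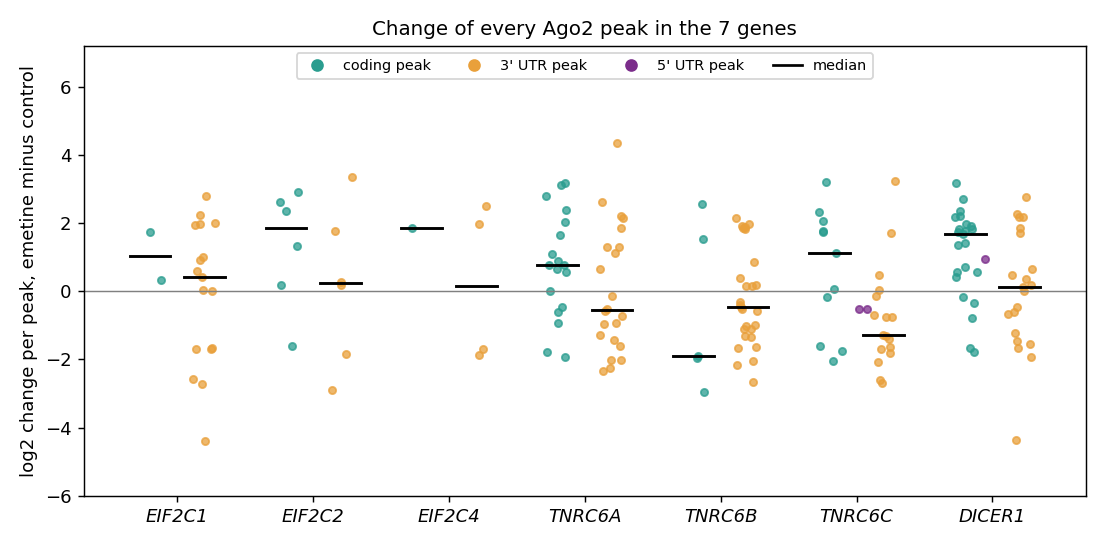
Log2 change (emetine minus control) of each of the 183 Ago2 peaks, by gene and by transcript region, with the median as a bar. Coding peaks lie above 0 more often than not in every gene except TNRC6B (48 of 66 in all), while the 3′ UTR peaks of TNRC6C lie mostly below 0 (13 of 17).

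The place of Ago2 reads within the mRNA was compared next. Of the 183 peaks, 114 (62.3%) lay in 3′ UTRs, 66 (36.1%) in coding sequence and 3 in 5′ UTRs, where 57.6% and 33.2% of all listed peaks lay in 3′ UTRs and coding sequence. Coding peaks were higher with emetine in 48 of 66 cases (72.7%, median log2 change 1.22), against 54.6% of all coding peaks (median 0.29). Of the 3′ UTR peaks 52 were higher and 62 lower (45.6% higher, median -0.43), against 47.2% of all 3′ UTR peaks (median -0.17). No test is given for these shares, since peaks of 1 gene are not replicates. With 1 library left out at a time, 38 to 52 of the 66 coding peaks were higher and 14 to 25 lower, the rest being equal. Of all 7472 coding peaks 3310 to 4243 were higher and 2693 to 3502 lower, with more lower than higher without emetine library 2. Of the 114 3′ UTR peaks 40 to 60 were higher and 47 to 73 lower, against 5339 to 6584 higher and 5497 to 7375 lower of all 12955. Without control library 2 more of the machinery 3′ UTR peaks were higher than lower, 60 against 47. The same held among those with reads in at least 3 of 6 libraries, where 35 were higher and 34 lower (50.7%, against 51.7% of all such peaks).

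The DICER1 coding sequence had 23 peaks, 18 of them higher with emetine and 5 lower. Its coding peaks held 12, 151 and 170 reads with emetine, against 2, 134 and 74 in the control. The lowest emetine library after normalisation was within the control range, so the groups overlap. The ratio of read totals was 1.76 (95% interval 1.48 to 2.10) and the log2 change 1.44 (SE 0.67, limma unadjusted p = 0.0322, adjusted p = 0.695). Of all 3658 genes with coding peaks 2.13% reached an unadjusted p under 0.05 and 0.0273% an adjusted one. The 21 DICER1 peaks in the 3′ UTR, where the miR-107 matches printed above lie, gave 18, 70 and 97 reads with emetine, against 18, 210 and 41 in the control. Their ratio was 0.764 (95% interval 0.630 to 0.925), yet the log2 change was 0.033 (SE 0.64, limma adjusted p = 0.999), since 210 of the 269 control reads came from library 2. Over 3′ UTR peaks alone, none of the 7 genes had an unadjusted p under 0.05, where 1.69% of all genes with such peaks did.

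In TNRC6C, too, coding peaks and 3′ UTR peaks went different ways, in ratios of reads. Its 11 coding peaks held 10, 33 and 63 reads with emetine against 5, 23 and 27 in the control, and after normalisation every emetine library was above every control library, as in 4.13% of all genes with coding peaks. The ratio was 2.14 (95% interval 1.53 to 3.02), with a log2 change of 1.05 (SE 1.02, limma adjusted p = 0.695). The 17 TNRC6C peaks in the 3′ UTR held 7, 45 and 65 reads with emetine against 10, 85 and 116 in the control, a ratio of 0.616 (95% interval 0.487 to 0.776), with a log2 change of -0.60 (SE 0.78, limma adjusted p = 0.832). A further 2 overlapping peaks in the 5′ UTR each held 2 reads in emetine library 1 and 19 in control library 2, and none elsewhere.

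As a share of coding and 3′ UTR reads together, which does not depend on library scaling, the coding reads of TNRC6C made up 58.8%, 42.3% and 49.2% in emetine libraries 1 to 3. In control libraries 1 to 3 they made up 33.3%, 21.3% and 18.9%. The means were 50.1% ± 8.29 with emetine and 24.5% ± 7.74 in the control (SD, n = 3 each), and the two-sided exact permutation p was 0.1, the smallest that 3 against 3 libraries allow. No gene could pass 0.05 at this size, and this was 1 of 6 genes compared. Of 858 genes with peaks in both regions and reads in them in every library, 5.24% had all 3 emetine shares above all 3 control shares. In DICER1 the coding share was 40%, 68.3% and 63.7% with emetine, against 10%, 39.0% and 64.3% in the control, with control library 3 among the emetine values (exact permutation p = 0.3, n = 3 each). The exact permutation p was 0.4 for EIF2C1, 0.5 for TNRC6A and TNRC6B and 1 for EIF2C2, while EIF2C4 had too few reads for a share in emetine library 1. Over all listed peaks the coding share was 35.6%, 37.7% and 34.4% with emetine, beside 35.2%, 29.8% and 28.8% for untreated cells (exact permutation p = 0.2, n = 3 each).

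**Figure D3:**
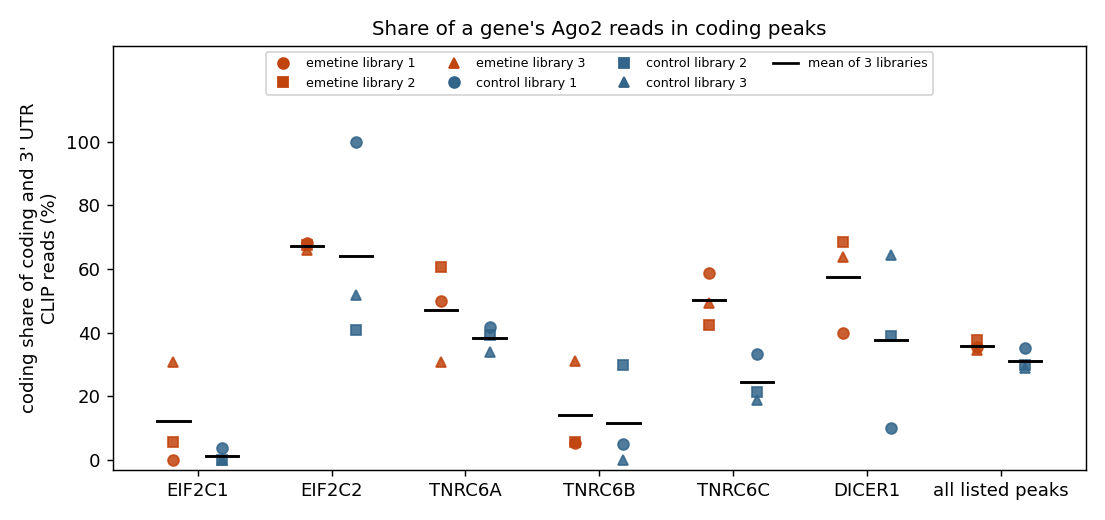
Share of a gene's coding and 3′ UTR Ago2 reads that lay in coding peaks, in percent. Points are libraries, emetine left and control right of each name, and bars are means of 3; the groups are apart only in TNRC6C, where emetine libraries lie between 42.3% and 58.8% and control libraries between 18.9% and 33.3%.

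In TNRC6A and EIF2C2 the ratios of reads were likewise above 1 over coding peaks and under 1 over 3′ UTR peaks. In EIF2C2 the log2 changes did not show this split. In TNRC6A the coding peaks held 13, 147 and 61 reads with emetine against 10, 101 and 62 in the control. The ratio was 1.42 (95% interval 1.16 to 1.74), with 13 of 18 peaks higher. The groups overlapped, and TNRC6A had a log2 change of 0.44 over coding peaks (SE 0.66, limma adjusted p = 0.775). Its 3′ UTR peaks held 13, 95 and 137 reads with emetine against 14, 156 and 120 in the control, a ratio of 0.939 (95% interval 0.789 to 1.12). EIF2C2 had 17, 54 and 27 coding reads with emetine against 3, 11 and 42 in the control. The ratio was 1.94 (95% interval 1.39 to 2.75), with 5 of 6 peaks higher. The groups overlapped here too, and EIF2C2 had a log2 change of 1.51 over coding peaks (SE 1.08, limma adjusted p = 0.695). Its 3′ UTR peaks held 8, 26 and 14 reads with emetine against 0, 16 and 39 in the control. The ratio was 0.970 (95% interval 0.644 to 1.45), with 4 of 6 peaks higher. The log2 change over these 3′ UTR peaks was 1.90 (SE 1.54, limma adjusted p = 0.803), no lower than over the coding peaks of EIF2C2. The difference between the regions was not tested beyond the coding shares above.

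TNRC6B coding peaks were lower with emetine in read totals, with 1, 10 and 15 coding reads with emetine against 1, 61 and 0 in the control, a ratio of 0.466 (95% interval 0.283 to 0.748). Nearly all of those control reads came from library 2, and the mean of logarithms was higher with emetine at 1.03 (SE 1.92, limma adjusted p = 0.835). EIF2C1 had 0, 12 and 12 coding reads with emetine against 2, 0 and 0 in the control, in 2 peaks, and the coding share averaged 12.2% ± 16.4 with emetine and 1.28% ± 2.22 in the control (SD, n = 3 each). EIF2C4 had 1 coding peak, with 15 reads in emetine library 2 and 0 in every control library. Over 3′ UTR peaks the ratio was 1.40 (95% interval 1.16 to 1.68) in EIF2C1, with 11 of 17 peaks higher. It was 2.03 (95% interval 1.19 to 3.53) in EIF2C4 and 0.943 (95% interval 0.784 to 1.13) in TNRC6B. The log2 changes over these 3′ UTR peaks were 0.028 (SE 0.59) in EIF2C1, -1.32 (SE 2.06) in EIF2C4 and -0.31 (SE 0.63) in TNRC6B.

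Single 3′ UTR peaks were named by their reads or by their deposited ratio, so the directions of the highest and the most negative ones follow from that choice. The widest and best covered TNRC6A peak, chr16:24835778-24835894, spans 116 nt and held 2, 13 and 23 reads with emetine against 6, 40 and 25 in the control. Its ratio was 0.595 (95% interval 0.390 to 0.894), with a log2 change of -0.94 (SE 1.42, limma adjusted p = 0.870). The TNRC6A peak with the 27.8 ratio described above begins 80 nt downstream of its end. Another TNRC6A peak, chr16:24836993-24837041, had the most negative deposited ratio of the gene, with 0, 3 and 0 reads against 1, 3 and 6.

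In EIF2C1 the peak at chr1:36386934-36387007 held 4, 22 and 4 reads with emetine against 11, 0 and 0 in the control. The ratio of read totals was 3.03 (95% interval 1.48 to 6.70), but the mean normalised reads were 37.6 with emetine and 29.3 in the control. The groups overlapped, as all 11 control reads came from library 1. Its log2 change was 2.80 (SE 1.83, limma adjusted p = 0.784). The neighbouring peaks upstream were singled out after their values were seen. The nearer, chr1:36386805-36386841, held 0, 21 and 1 reads with emetine against 0, 3 and 4 in the control. The ratio was 3.49 (95% interval 1.44 to 9.68) and the log2 change 0.42 (SE 2.03, limma adjusted p = 0.973). The next, chr1:36386725-36386774, was read in all 6 libraries, with 6, 17 and 9 reads against 5, 16 and 15, a ratio of 0.988 (95% interval 0.594 to 1.64). The best covered EIF2C1 peak, chr1:36389118-36389168, held 8, 32 and 0 reads with emetine against 1, 33 and 0 in the control, so library 3 of both treatments lacked it.

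TNRC6C had the highest ratio of any named peak with reads in both treatments, at chr17:76102869-76102917, with 0, 27 and 12 reads against 0, 0 and 1, a ratio of 43.3 (95% interval 7.33 to 1755; limma adjusted p = 0.784). Its best covered peak, chr17:76101963-76102002, held 1, 0 and 20 reads with emetine against 0, 9 and 11. The peak at chr17:76101727-76101780 held 0 reads in each emetine library against 1, 0 and 12, at least 3.90-fold lower.

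**Figure D4:**
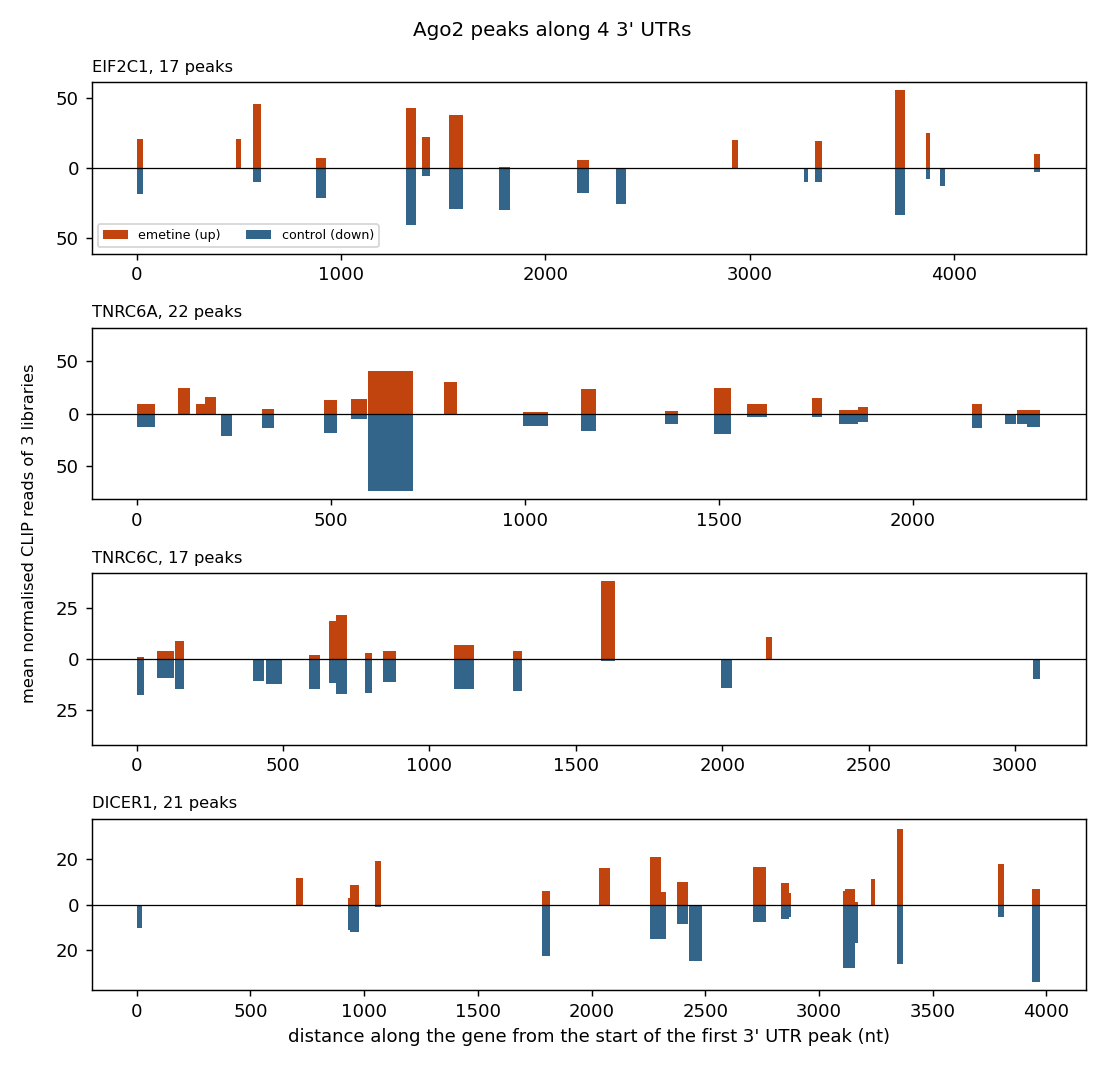
Ago2 peaks along the 3′ UTRs of EIF2C1, TNRC6A, TNRC6C and DICER1, with distance in nt from the first 3′ UTR peak in the direction of transcription. Bars give the mean normalised CLIP reads of 3 libraries, emetine upward and control downward; the widest TNRC6A peak is taller in the control, and the tallest TNRC6C emetine peak has 1 control read.

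The remaining named peaks follow, by gene. In DICER1 the best covered peak, coding chr14:95569955-95569993, held 0, 12 and 53 reads with emetine against 1, 39 and 11, so its totals were higher (ratio 1.42, 95% interval 0.966 to 2.09) and its log2 change was -0.77 (SE 1.64, limma adjusted p = 0.925). Another DICER1 coding peak, chr14:95562632-95562654, held 3, 0 and 9 reads with emetine and 0 in every control library, at least 4.44-fold higher. TNRC6B had 4, 25 and 1 reads with emetine against 1, 0 and 5 in its 3′ UTR peak chr22:40721538-40721602. The ratio was 5.56 (95% interval 2.28 to 16.3) and the log2 change 2.16 (SE 1.86, limma adjusted p = 0.784).

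In the coding sequence of TNRC6B, chr22:40661894-40661920 held 0, 10 and 2 reads with emetine and 0 in every control library, at least 4.44-fold higher. The TNRC6B coding peak chr22:40660691-40660711 held 0 reads in each emetine library against 1, 18 and 0, at least 5.70-fold lower. In the EIF2C2 3′ UTR the peaks with the highest and the most negative deposited ratio lie side by side. There chr8:141541950-141541975 held 2, 19 and 0 reads with emetine and 0 in the control, at least 7.78-fold higher, and chr8:141541866-141541908 held 0 with emetine against 0, 9 and 6, at least 4.50-fold lower. In EIF2C4 the 3 named 3′ UTR peaks were each read in 1 treatment only, with 20 and 17 reads with emetine at chr1:36322445-36322476 and chr1:36323109-36323133, and 17 control reads at chr1:36320674-36320705. The adjusted p from limma was 0.784 for each peak of this paragraph.

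The RNA ratios of the 7 genes all lay within 0.5 of 0 on the log2 scale. There was 1 RNA library per treatment and so no test, and in bulk RNA fewer cells with a transcript and less of it per cell cannot be told apart. In RNA reads DICER1 had 2638 with emetine and 1139 in the control, TNRC6B 1233 and 495, EIF2C1 997 and 537, TNRC6A 954 and 301, EIF2C4 552 and 225, TNRC6C 462 and 168, and EIF2C2 384 and 131. The emetine library was deeper, with 3769349 against 1561523 reads over all genes, and after scaling the log2 ratios ranged from -0.45 in EIF2C1 (95% counting interval -0.60 to -0.30) to 0.32 in TNRC6A (0.13 to 0.51). DICER1 was at -0.13 (-0.23 to -0.03). The intervals of EIF2C2, EIF2C4, TNRC6B and TNRC6C held 0. None of the 7 passed a log2 ratio of 0.5 in either direction, where 6.2% of 5807 genes lay above 0.5 and 5.94% below -0.5.

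In EIF2C1 the CLIP read ratio was 1.51 and the RNA read ratio 0.731, so they lay on opposite sides of 1. In TNRC6A, with the highest RNA log2 ratio of the 7, the CLIP and RNA read ratios were 1.12 and 1.25. The deposited ratios of single peaks are relative to this RNA. Their median for the 183 peaks was 0.26 on the log2 scale in the authors' deposited table, against 0.045 for all peaks.

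**Figure D5:**
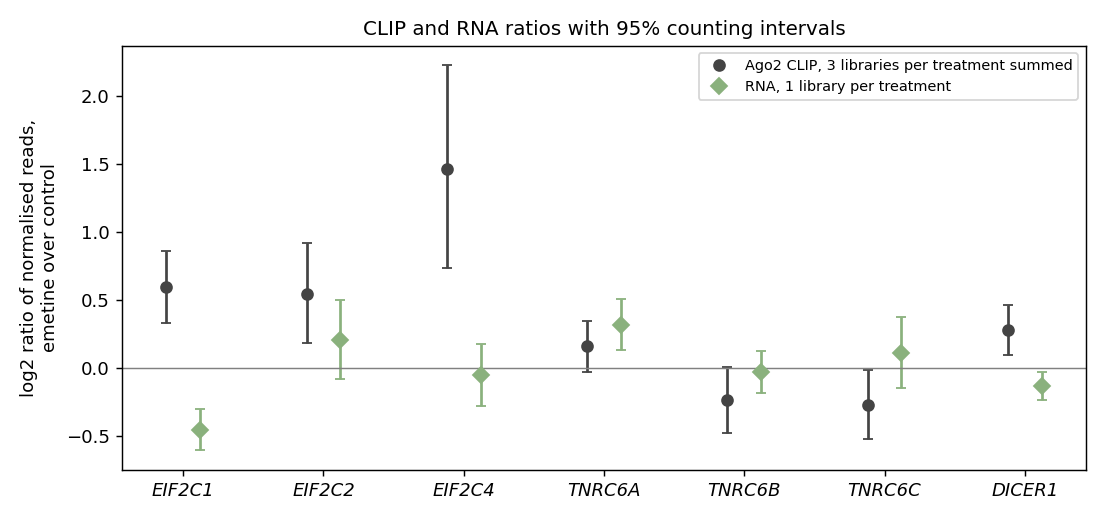
Log2 ratio of read totals scaled by depth, emetine over control, for Ago2 CLIP and RNA, with exact 95% intervals of the counts. The CLIP reads of 3 libraries per treatment were summed before scaling, so this is not the ratio of mean normalised reads. RNA had 1 library per treatment. All 7 RNA ratios lie within 0.5 of 0, and the CLIP interval is widest in EIF2C4; the intervals do not hold the spread between libraries.

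Other genes of the pathway were taken as a list of 44 names that covers processing, export, tailing and decay of microRNAs and the partners of Argonaute. Of these, 31 had Ago2 peaks, 161 peaks in all, and summed per gene 15 were higher and 16 lower with emetine, with a median log2 change of -0.029 against 0.037 for all genes. In limma 0 had an adjusted p under 0.05, as for 0% of all genes. At an unadjusted p under 0.05 there was 1 of the 31, against 1.84% of all genes. It was LIMD1, which encodes a LIM protein that binds Argonaute and GW182 proteins. LIMD1 held 0, 0 and 9 reads with emetine against 4, 70 and 14 in the control, a log2 change of -4.36 (SE 1.99, limma unadjusted p = 0.0284, adjusted p = 0.800). The RNA log2 ratios of the list ranged from -0.43 to 0.59, and 1 of the genes, SND1, lay above 0.5, against 6.2% of all genes.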

How the data were processed

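Each row of the authors' deposited table gives an Ago2 peak with its position, region and gene symbol, an average level and an emetine ratio. Per the file headers both are logarithms relative to RNA. The values are natural log, as a search over the deposited numbers showed, while the headers name no base. The submitters' processing notes name hg19, Bowtie 0.12.8, TopHat and DESeq without roles. The peak caller is not given in the sources used here, nor is the start convention of coordinates, which are printed as listed.

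Average plus or minus 0.5 × ratio gives a value per treatment, which is a mean of ln(1 + reads × factor) across 3 CLIP libraries, less the RNA term. Whole reads were found by search within 1e-13 for 22497 of 22506 peaks (99.96%). Of 1787 emetine and 1945 control values shifted on purpose, 16 and 6 matched by chance. CLIP factors, meaning the worth of a single read, were 8.86, 3.00 and 2.81 for emetine and 8.00, 2.82 and 2.43 for control. RNA factors were 2.51 for emetine and 6.37 for control.

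limma 3.58.1 (R 4.3.3), with a trend and treatment alone, was fitted on log2(reads × factor + 1) over all peaks or genes, with Benjamini-Hochberg adjustment at 0.05. To scale ratios of reads, the inverse factors were summed per treatment, and intervals were exact binomial at 95%, with a floor of 3 reads. Shares were compared by exact permutation (scipy 1.17.1). The limma fit and the recovery of reads were each tested on simulated data. Named peaks were, for each gene, the one with most reads and those with the highest and the most negative deposited ratio. Members, lists and rules were chosen with earlier results of these data known. Seed matches used GENCODE release 29 transcripts, with RefSeq microRNAs of GRCh38.p14.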

Additional observations from a re-analysis of the deposited data

How the results depend on the processing

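No machinery peak or gene passed an adjusted p of 0.05 under any alternative run: added constants of 0.5 and 5, scaling to total reads, a filter on reads in at least 3 libraries, limma-voom, depth class as a term, identical or overlapping peaks counted once, 1 region only, or 1 library left out. Overlapping peaks counted once and coding peaks alone were added after seeing the data. No RNA ratio passed 0.5. No paired analysis was possible because the antibody of a recovered library is not known, so library numbers do not pair the treatments. The nearest fit to a block was that with depth class as a term, which sets library 1 of both treatments apart.

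The sign of gene changes turned in some alternatives, and the cause was not tested. The log2 change of TNRC6A was -0.062 over 3′ UTR peaks. Over coding peaks that of EIF2C4 was 1.84, of TNRC6B 1.03 and of TNRC6C 1.05. With identical peaks counted once it was 0.0052 in TNRC6C. With 1 library left out, gene changes ranged from -0.014 to 1.18 for DICER1, -0.37 to 0.89 for EIF2C1, -3.31 to 0.39 for EIF2C4, -0.32 to 0.68 for TNRC6A, -0.88 to 0.25 for TNRC6B and -0.59 to 0.29 for TNRC6C. Peak changes ranged from -2.31 to 1.30 for DICER1 chr14:95569955-95569993, -0.61 to 3.14 for EIF2C1 chr1:36389118-36389168, and -1.71 to 1.40 for TNRC6C chr17:76101963-76102002. At an unadjusted p under 0.05 there were 5 machinery peaks without emetine library 3, against 3 with all libraries. There was 1 gene at that level without control library 3 (EIF2C2) and 1 over coding peaks (DICER1). Over all genes, 0 were called in the fit reported, against 2 with limma-voom, 3 with depth class as a term and 1 over coding peaks, none of them a machinery gene. Few reads per peak limit the precision: the median standard error of a peak's log2 change was 2.06.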
